A study of Mus musculus with 6 samples.

Results

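Hox genes and the limb identity factors Pitx1, Tbx4, Tbx5 and Tbx15 were examined in newborn mouse quadriceps, a thigh muscle of the hindlimb. They were chosen by name: every probe whose annotated symbol was Hoxa, Hoxb, Hoxc or Hoxd followed by a digit, or was 1 of those 4 symbols. This gave 66 probes for 43 genes, out of 45281 probes and 19057 named genes on the array, and 21 of the 43 genes were detected. The 43 were 38 protein-coding Hox genes, the 4 factors and Hoxd3os1, a long non-coding RNA of the D cluster. The mice were 3 Klhl40 knock out (KO) animals and 3 wildtype (WT) animals, all of the C57BL/6 strain and killed at 0 days of age, with 1 Illumina bead array per mouse. Klhl40 encodes a muscle kelch protein, and the labels describe KO mice as killed alongside WT littermates. The labels do not say how the allele was made. P-values measure the spread between these mice. Whole muscle was measured, so fewer cells of a type and less RNA per cell cannot be told apart.

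Hox genes encode homeodomain transcription factors that lie in clusters named A to D. Genes with the same number in different clusters are paralogues, and their order along a cluster follows the order along the body axis in which they are used, from low numbers near the head to high numbers near the tail and at the tips of the limbs. In the mouse hindlimb, group 10 is tied to the upper segment that holds the thigh, group 11 to the lower leg and group 13 to the foot. Pitx1 and Tbx4 mark the hindlimb and Tbx5 the forelimb, while Tbx15 is a T-box factor of limb and trunk mesenchyme and of glycolytic muscle fibres. In mouse limbs, Hox genes and Tbx4 are known from the connective tissue around the fibres, and Hox genes also from myogenic cells.

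The promoters of 4 members that the results below turn on are shown first. Hoxb4 and Hoxd4 are paralogues that were high on the same arrays, Hoxd8 was 1 of 2 members with an unadjusted p under 0.05, and Tbx4 was the hindlimb factor that was detected. The sequences are from RefSeq, build GRCm38.p6, plus strand, and run from 250 bases before to 50 bases after the gene start, at chr11:96318017-96318316 for Hoxb4, chr2:74721728-74722027 for Hoxd4, chr2:74704365-74704664 for Hoxd8 and chr11:85896515-85896814 for Tbx4. Capitals mark matches on either strand to the letters of a core promoter box, TATAAA, of a joint site for Pbx and Hox proteins, TGATNNAT, of a Cdx site, TTTATG, or of a nuclear receptor half-site, AGGTCA.
Hoxb4: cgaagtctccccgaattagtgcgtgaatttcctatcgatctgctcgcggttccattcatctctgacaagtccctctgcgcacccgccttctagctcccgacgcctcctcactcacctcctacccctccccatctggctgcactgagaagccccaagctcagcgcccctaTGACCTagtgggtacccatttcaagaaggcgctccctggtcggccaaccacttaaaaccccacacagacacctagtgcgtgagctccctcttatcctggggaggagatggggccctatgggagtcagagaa
Hoxd4: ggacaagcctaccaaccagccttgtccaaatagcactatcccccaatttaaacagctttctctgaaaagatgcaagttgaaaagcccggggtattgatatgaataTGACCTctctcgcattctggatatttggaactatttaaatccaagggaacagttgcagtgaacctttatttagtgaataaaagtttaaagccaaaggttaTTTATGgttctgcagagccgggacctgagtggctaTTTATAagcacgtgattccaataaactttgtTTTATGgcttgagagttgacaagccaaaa
Hoxd8: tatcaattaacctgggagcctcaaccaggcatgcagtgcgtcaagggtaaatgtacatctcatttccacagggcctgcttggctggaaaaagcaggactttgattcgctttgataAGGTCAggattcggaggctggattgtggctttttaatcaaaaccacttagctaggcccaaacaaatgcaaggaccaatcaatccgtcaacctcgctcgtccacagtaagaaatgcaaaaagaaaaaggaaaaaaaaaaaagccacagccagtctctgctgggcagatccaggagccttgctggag
Tbx4: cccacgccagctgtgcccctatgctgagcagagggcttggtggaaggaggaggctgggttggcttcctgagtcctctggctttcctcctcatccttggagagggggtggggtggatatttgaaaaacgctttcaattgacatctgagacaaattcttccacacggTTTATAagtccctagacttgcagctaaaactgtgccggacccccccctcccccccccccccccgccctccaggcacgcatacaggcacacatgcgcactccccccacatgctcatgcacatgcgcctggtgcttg
The Hoxb4, Hoxd4 and Hoxd8 windows each held 1 AGGTCA match, which 16.3% of the 32851 promoters in the table also held. The Hoxd4 window also held 2 TTTATG matches, found in 11.9% of promoters, and 1 TATAAA match, found in 13.6%. The Tbx4 window held 1 TATAAA match, and none of the 4 windows held TGATNNAT, which was in 8.85% of promoters. The 4 windows differed in base composition: Hoxb4 had 14 CG dinucleotides, Tbx4 8, Hoxd8 6 and Hoxd4 4, against a median of 7 over all promoters. The table held promoters of 24 of the 43 genes, 13 of them detected, and the matches are descriptions of letters in these windows.

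Before the members, the arrays were checked. Klhl40 averaged 122 ± 15.7 in KO and 1786 ± 129 in WT (mean bead intensity, SD, n = 3 each), and it was detected on 1 of 3 KO arrays and on 3 of 3 WT arrays. Between 18373 and 19189 probes were detected per array, and skeletal muscle fibre markers summed to 193072 to 197881 in KO and 197261 to 202034 in WT (intensity over 8 genes). WT 3 stood apart: on the first principal component it lay at 32.3, with KO 3 at 8.31 and the other arrays between -14.6 and -5.30, so results are also given without it.

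Detection came first, that is, which of these genes gave a signal above the negative control beads. Detection required a p under 0.05 in 3 or more of 6 arrays, which 27 of the 66 member probes met (40.9%), against 46.3% of all probes with a symbol and 42.2% of all probes. By cluster, 7 of 10 Hoxa genes, 4 of 10 Hoxb genes, 3 of 9 Hoxc genes and 5 of 9 Hoxd genes were detected. By position, 15 of 26 genes of groups 1 to 9 were detected and 4 of 12 genes of groups 10 to 13. The detected genes were Hoxa2, Hoxa3, Hoxa4, Hoxa5, Hoxa7, Hoxa9 and Hoxa13, Hoxb2, Hoxb4, Hoxb5 and Hoxb7, Hoxc6, Hoxc9 and Hoxc10, and Hoxd4, Hoxd8, Hoxd9, Hoxd10 and Hoxd11. Detection of Hoxa3 rested on 1 dim probe of 4 and that of Hoxd11 on 1 dim probe of 2, and their remaining probes were detected on 0 arrays. In group 4, where the Hoxa, Hoxb and Hoxd members were detected, Hoxc4 was detected on 1 array. In group 10, Hoxc10 and Hoxd10 were detected, whereas the better Hoxa10 probe was detected on 1 array.

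**Figure D1:**
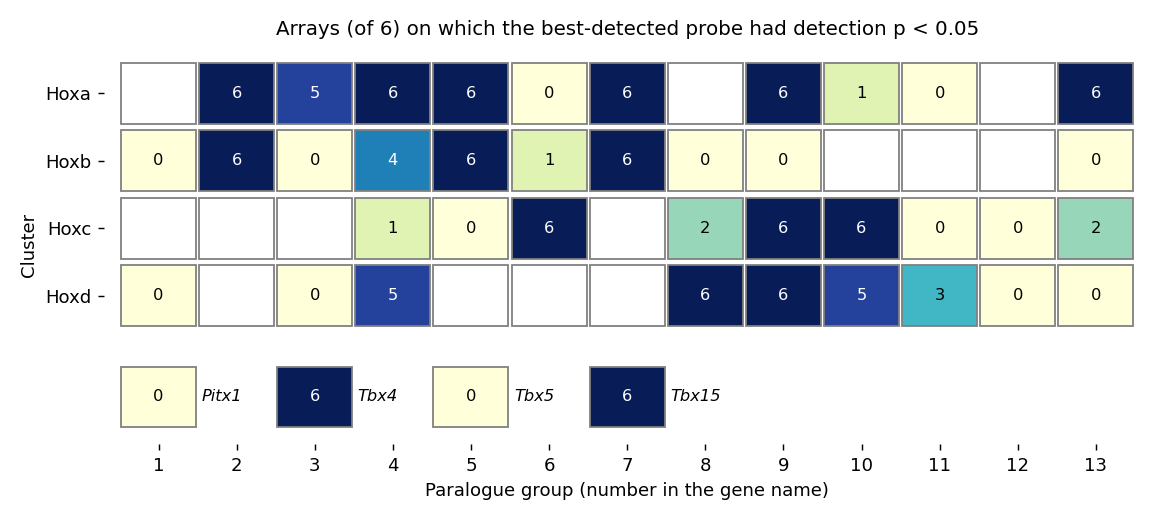
Number of arrays, of 6, on which the best-detected probe of each gene had a detection p under 0.05, by cluster (rows) and paralogue group (columns), with Pitx1, Tbx4, Tbx5 and Tbx15 below; an empty box has no probe with that symbol. Hoxa13, Hoxc9, Hoxc10, Tbx4 and Tbx15 were detected on all 6 arrays, and Pitx1 and Tbx5 on 0.

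The limb identity factors were detected in part. One Tbx4 probe was detected on all 6 arrays, with intensities of 420, 366 and 412 in KO and 382, 387 and 399 in WT, and the other Tbx4 probe on 0. The Tbx4 values of the genotypes overlapped. Tbx15 gave the same picture, with 1 probe detected on 6 arrays and the other on 0. Both probes of the forelimb factor Tbx5 were detected on 0 arrays, with intensities between 97.5 and 111. The single probe of Pitx1, a hindlimb factor, was also detected on 0 arrays, at 103 to 108. For Pitx1 the label of hindlimb identity was therefore not borne out by a measured signal on this array, and whether its probe can detect the transcript was not tested.

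Of the 22 genes that were not detected, 5 had a probe detected on 1 or 2 arrays. Hoxc8 was detected on 2 KO arrays and 0 WT arrays and Hoxc13 on 1 array of each genotype, just outside the rule. Just inside it were Hoxd11, on 2 KO arrays and 1 WT array, and Hoxb4, on 1 KO array and 3 WT arrays. Hoxa6, Hoxa10, Hoxa11, Hoxb1, Hoxb3, Hoxb6, Hoxb8, Hoxb9, Hoxb13, Hoxc4, Hoxc5, Hoxc11, Hoxc12, Hoxd1, Hoxd3, Hoxd12, Hoxd13 and the antisense transcript Hoxd3os1 made up the other undetected genes besides Pitx1 and Tbx5. None of the 27 detected probes was detected in 1 genotype only (0 probes). Of the 21 genes tested, 16 were detected on all 6 arrays and Hoxa3, Hoxb4, Hoxd4, Hoxd10 and Hoxd11 on 3 to 5. Hoxa3, Hoxb4, Hoxd4 and Hoxd10 were detected on 3 WT arrays and fewer KO arrays, so WT alone met the rule for them.

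The second question was whether these genes differ between KO and WT. Differences are KO minus WT in log2 normalised intensity, tested with limma over 13455 genes. No member passed the threshold of an adjusted p under 0.05: 0 of 21 were higher, against 0.111% of all genes, and 0 were lower, against 0.0372% (0.149% in either direction). At an unadjusted p under 0.05, 2 members were lower in KO, Hoxa4 and Hoxd8, against 3.37% of all genes, and 0 were higher, against 3.89% (7.27% in either direction). The limma adjusted p of the members ran from 0.531 to 0.993, and their differences from -0.45 for Hoxb4 to 0.25 for Hoxa13. Both depended on the background correction, being -0.15 for Hoxb4 and 0.11 for Hoxa13 without it. In 16 of 21 members the difference was below 0, against 50.6% of all genes, and the median was -0.11, against -0.0022 over all genes. Among the 16, Hoxa3, Hoxb4, Hoxd4 and Hoxd10 met the detection rule on WT arrays alone. The count below 0 was 12 of 16 with detection on all 6 arrays and 24 of 43 without a filter. The share over all genes was not taken under those filters. For 19 of 21 members the 95% interval lay within 1 log2 unit of 0 on either side, as it did for 97.1% of all genes. The exceptions were Hoxb4 and Hoxd4. Hoxa2, Hoxa3, Hoxb2, Hoxd10 and Hoxd11 averaged only 4.71 to 5.22 in WT (log2), near the 4.32 to 4.48 of the undetected Pitx1 probe. A large fall could not register in these genes, so their intervals do not show that one is absent.

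**Figure D2:**
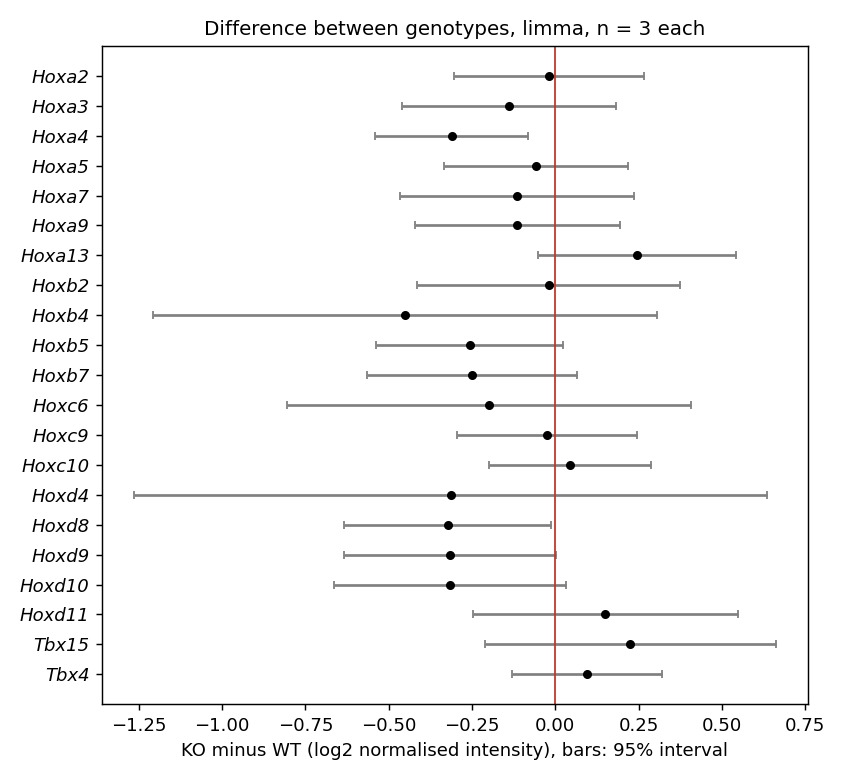
Difference between KO and WT for the 21 detected genes (log2 normalised intensity, horizontal axis), with dots for the limma estimate and bars for the 95% interval, 3 arrays per genotype. Intervals of 2 genes, Hoxa4 and Hoxd8, do not reach 0 before adjustment, and the widest are those of Hoxd4 and Hoxb4.

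Hoxa4, the A cluster gene of group 4, had the smallest unadjusted p of the members. Its intensities were 186, 195 and 204 on KO 1 to KO 3 and 213, 223 and 236 on WT 1 to WT 3. All KO values lay below all WT values. On the log2 scale it averaged 6.73 ± 0.11 in KO and 7.04 ± 0.04 in WT (SD, n = 3 each). KO minus WT was -0.31 (SE 0.098), with a limma adjusted p of 0.531. Over the 15 alternative settings the difference stayed between -0.35 and -0.18.

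Hoxd8, Hoxd9 and Hoxd10 lie next to each other in the D cluster. Hoxd8 gave intensities of 238, 265 and 272 in KO and 269, 323 and 337 in WT, and on the log2 scale KO 2 at 7.56 lay above WT 1 at 7.53. Its difference was -0.32 (SE 0.13, limma adjusted p = 0.664). Hoxd9, a group 9 gene, had 154, 151 and 155 in KO and 153, 178 and 187 in WT, where WT 1 fell among the KO values. Its difference was -0.32 (SE 0.14), and its other detected probe gave -0.19 (SE 0.14). Hoxd10 was near background, at 113, 120 and 125 in KO and 125, 131 and 126 in WT, and KO minus WT was -0.32 (SE 0.15). Its groups did not overlap, but only just, with KO 3 at 5.10 and WT 3 at 5.11 on the log2 scale. Without background correction the differences were -0.22 for Hoxd8, -0.14 for Hoxd9 and -0.091 for Hoxd10, and without KO 1 that of Hoxd10 was -0.17. Hoxd11, next along the cluster and detected on 3 arrays, differed by 0.15 (SE 0.17).

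In the B cluster, Hoxb5 and Hoxb7 also had KO and WT values that did not overlap on the log2 normalised scale. Hoxb5 gave 153, 151 and 152 in KO and 156, 163 and 185 in WT. The gap between the genotypes was narrow for Hoxb5, since KO 2 at 6.04 and WT 1 at 6.08 were close on the log2 scale. Hoxb7 gave 251, 250 and 263 in KO and 261, 274 and 354 in WT. Before normalisation KO 3 lay just above WT 1. WT 3 was far above the rest, and the difference of -0.25 (SE 0.14) became -0.11 without it. The other Hoxb7 probe, also detected on all 6 arrays, differed by 0.025 (SE 0.15), so the probes of Hoxb7 disagreed. Hoxb2 differed by -0.020 (SE 0.17) and by 0.15 without WT 3.

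Together, Hoxa4, Hoxb5, Hoxb7 and Hoxd10 were the 4 of 21 members with all KO values below all WT values, which held for 6.42% of all genes. Among the 4, Hoxd10 met the detection rule on WT arrays alone. In the other direction the count was 0, against 6.93% of all genes. With 1 array fewer, groups separate more easily. Without WT 3 the counts were 5 lower, against 14% of all genes, and 0 higher, against 12.7%, and 13 of 21 members had a negative difference, against 50.7%. Without KO 3 they were 8 lower, against 12.4% of all genes, and 1 higher, against 13.7%, and 15 of 21 had a negative difference, against 50%.

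**Figure D3:**
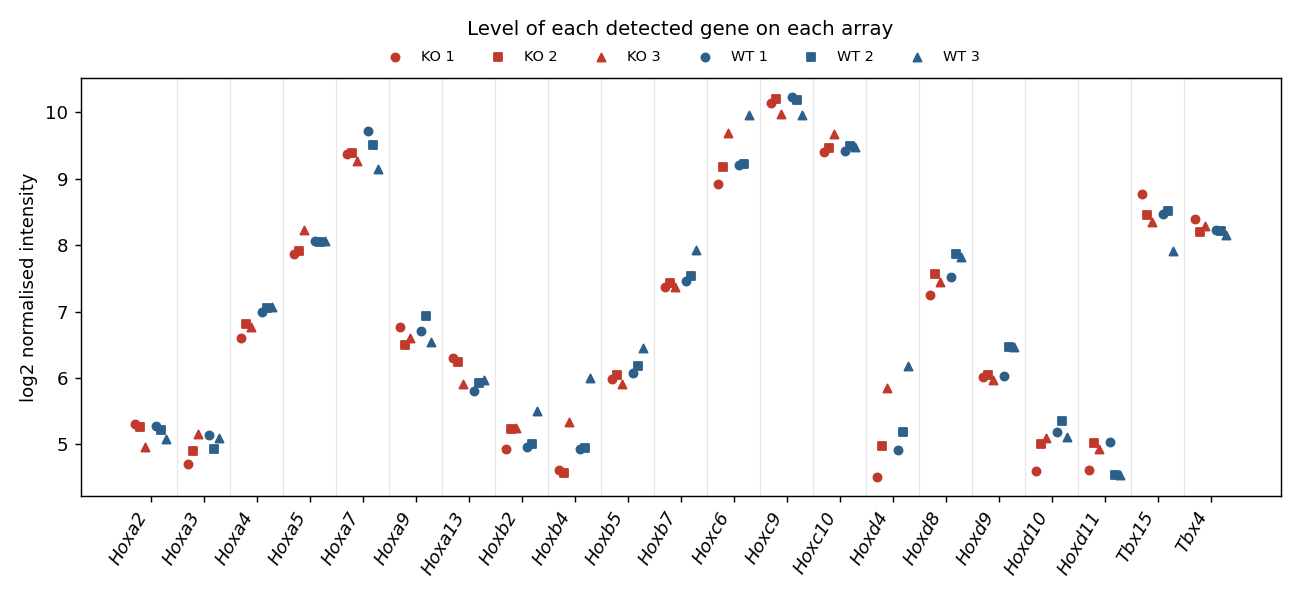
Level of the 21 detected genes on each array (log2 normalised intensity, vertical axis), with KO arrays in red left of WT arrays in blue and circles, squares and triangles for arrays numbered 1, 2 and 3. Heights can be compared within a gene but not between genes, whose probes differ; the triangles of Hoxb4, Hoxc6 and Hoxd4 lie above the circles and squares in both genotypes.

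On the background-corrected log2 scale, Hoxb4, Hoxc6 and Hoxd4 had the largest spread within a genotype among the 21 members. Their SDs were 0.44, 0.39 and 0.68 in KO and 0.61, 0.43 and 0.67 in WT (log2, n = 3 each). Hoxb4 and Hoxd4 were near background, detected on 4 and 5 arrays, and the size of their log2 values depends on the background correction. Without it their differences were -0.15 and -0.11, in place of -0.45 and -0.31. Hoxc6 was well above background and changed little, from -0.20 to -0.17. Hoxc6, a group 6 gene, gave 567, 630 and 938 in KO and 670, 690 and 1136 in WT. Its highest values were on KO 3 and WT 3. Hoxd4 gave 111, 119 and 149 in KO and 119, 126 and 169 in WT, and Hoxb4 gave 114, 110 and 132 in KO and 120, 121 and 159 in WT. Both were again highest on KO 3 and WT 3, the arrays with the same number.

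KO minus WT for these genes depended on the array left out. Hoxd4 had a difference of -0.31 (SE 0.41), 0.064 without WT 3 and -0.68 without KO 3. Hoxc6 had -0.20 (SE 0.26), 0.052 without WT 3 and -0.41 without KO 3. Hoxb4 had -0.45 (SE 0.32), -0.10 without WT 3 and -0.70 without KO 3. Within same-numbered pairs the differences were closer together: -0.40, -0.20 and -0.33 for Hoxd4, -0.28, -0.044 and -0.27 for Hoxc6, and -0.32, -0.39 and -0.65 for Hoxb4. With the array number as a block in limma, taken to mark littermates although the labels do not say that equal numbers do, the SE was 0.093 for Hoxd4, 0.10 for Hoxb4 and 0.097 for Hoxc6. Their adjusted p-values with the block were 0.338 for Hoxd4, 0.230 for Hoxb4 and 0.522 for Hoxc6. KO 3 and WT 3 were both high in these genes. The closer pair differences and the smaller SE with the block follow from that pattern and are no separate result.

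With that block limma again called 0 of 21 members, against 0.193% of all genes. At an unadjusted p under 0.05 it had 6 members lower in KO, namely Hoxa4, Hoxb4, Hoxd4, Hoxd8, Hoxd9 and Hoxd10, against 5.3% of all genes, and 0 higher, against 5.66%. Of the 6, Hoxb4, Hoxd4 and Hoxd10 met the detection rule on WT arrays alone, which favours a lower value in KO. In 9 of 21 members all 3 pairs had a negative difference, against 16.6% of all genes, and in 0 all 3 were positive, against 17.2%. The 9 were those 6 with Hoxb5, Hoxb7 and Hoxc6. Genes of 1 cluster and paralogues are not independent observations.

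Arrays numbered 3 were not high in every member. Both were above the other 4 arrays in 5 members, Hoxa5, Hoxb2, Hoxb4, Hoxc6 and Hoxd4, and below the other 4 in Hoxa2, Hoxa7, Hoxc9 and Tbx15, while over all genes these shares were 14.5% and 16.2%. Hoxa7, for example, gave 744, 719 and 721 in KO and 907, 830 and 694 in WT, with WT 3 the lowest of all. Hoxc9, the group 9 gene of the C cluster, gave 1209, 1215 and 1118 in KO and 1264, 1274 and 1136 in WT. The Hoxc9 values overlapped between genotypes, and its difference was -0.025 (SE 0.12) with a 95% interval of -0.29 to 0.25.

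**Figure D4:**
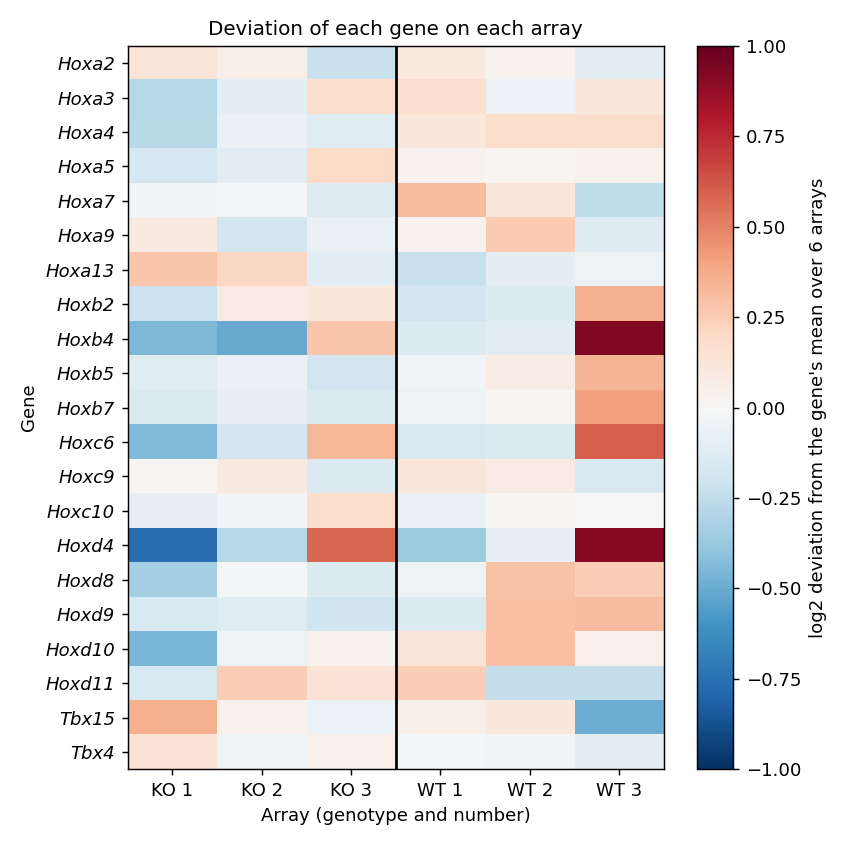
Deviation of each of the 21 detected genes on each array from its mean over the 6 arrays (log2 normalised intensity, colour), with KO arrays left of the line and WT arrays right of it. Hoxd4 and Hoxb4 are highest on WT 3 (0.91 and 0.93) and also above their mean on KO 3 (0.58 and 0.28).

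Hoxc10, a hindlimb Hox gene of group 10, gave 756, 751 and 924 in KO and 764, 823 and 846 in WT. Its groups overlapped, the difference was 0.045 (SE 0.10, 95% interval -0.20 to 0.29), and the other Hoxc10 probe gave -0.062 (SE 0.12). Tbx4 differed by 0.096 (SE 0.096, 95% interval -0.13 to 0.32), and Tbx15, at 518, 418 and 426 in KO and 435, 453 and 351 in WT, by 0.23 (SE 0.19). Without WT 3, the lowest Tbx15 array, its difference was 0.033.

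Hoxa13, the foot-level gene of the A cluster, had the most positive difference in this fit, at 0.25 (SE 0.13), but without background correction Tbx15 did, at 0.18. It gave 167, 159 and 152 in KO and 144, 151 and 158 in WT, which overlapped. Its probes disagreed in detection: the other 2 were detected on 3 and on 0 arrays, and the one on 3 arrays differed by 0.019 (SE 0.14). Hoxa9, a group 9 gene, had 1 probe at -0.11 (SE 0.13), another at 0.10 (SE 0.15) and 1 more that was not detected. Hoxa5 differed by -0.058 (SE 0.12), Hoxa7 by -0.11 (SE 0.15), Hoxa3 by -0.14 (SE 0.14) from the 1 detected probe of 4, and Hoxa2 by -0.019 (SE 0.12).

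Genes that work with or upstream of Hox genes did not pass the test either. None of 6 tested TALE cofactors, which bind DNA together with Hox proteins, was called (0 higher, 0 lower), with Meis2 at -0.22 (SE 0.15) and Meis1 at 0.16 (SE 0.13) the smallest in p. Of 7 retinoic acid and Cdx regulators 0 were called. All 7 had a negative difference (median -0.13), with Rxrb at -0.16 (SE 0.098) and Rarg at -0.16 (SE 0.12), and Cdx1, Cdx2 and Cdx4 were not detected. Of 24 Polycomb genes, which keep Hox genes silent, 0 were called (median 0.023), with Pcgf5 at 0.28 (SE 0.10) and Cbx2 at 0.26 (SE 0.12). Of 12 Trithorax genes, which keep them active, 0 were called (median 0.00053), with Kmt2d at 0.14 (SE 0.10) and Kmt2c at 0.11 (SE 0.097).

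Limb development lists gave the same count. Of 40 limb bud patterning genes 38 had a probe and 19 were tested, and 0 were called (median 0.0054). Lmx1b, the dorsal limb factor, differed by -0.28 (SE 0.10, limma adjusted p = 0.575), but it was detected on 0 KO arrays and 3 WT arrays and so entered the test through WT alone. Pitx3, a homeobox gene of differentiating muscle cells, differed by 0.34 (SE 0.14). Of 9 muscle connective tissue factors 0 were called, with Prrx1, a limb mesenchyme homeobox gene, at 0.23 (SE 0.10) and Hic1 at -0.24 (SE 0.19). Of 10 limb muscle precursor genes 9 had a probe and 4 were tested, and 0 were called, with Cxcr4 at 0.39 (SE 0.14) and Eya1 at 0.15 (SE 0.090). Pax3, Pax7, Met, Six4 and Myf5 were not detected, so the count does not cover them.

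Markers of other cell types varied beside these values. All 7 tested fibroblast markers of 8 listed had a negative difference (median -0.12), and they summed to 20296 to 20984 in KO and 21180 to 23754 in WT (intensity). None was called, and Lum had the smallest p, at -0.36 (SE 0.12). Thy1 was at -0.28 (SE 0.17), Dcn at -0.20 (SE 0.11) and Col1a2 at -0.12 (SE 0.12), while Col1a1, Col3a1 and Postn lay between -0.065 and -0.033 (SE 0.10 to 0.12). Of the cartilage and bone markers, 4 tested of 8 listed, Col2a1 and Sox9 were highest on both arrays numbered 3, with deviations of 1.16 and 0.35 on KO 3 and 1.35 and 0.52 on WT 3. Acan deviated by 0.18 on KO 3 and 0.27 on WT 3 but also by 0.17 on KO 1 and 0.19 on WT 1, and Ibsp was highest on KO 1. The list summed to 827 to 1775 in KO and 900 to 2002 in WT, and Matn1, Col9a1 and Bglap were not detected. Adipocyte markers, 5 tested of 7 listed, summed to 8574 to 9731 in KO and 8616 to 19796 in WT, the highest being WT 3, where their median deviation was 1.82. All 5 had a negative difference (median -0.66). Smooth muscle markers, 3 tested of 4, all had a negative difference (median -0.22) and summed to 9902 to 10384 in KO and 13989 to 14411 in WT. Acta2 makes up most of that sum, at -0.48 (SE 0.092, limma adjusted p = 0.189), while Tagln was at -0.22 (SE 0.16) and Myh11 at -0.064 (SE 0.25). Endothelial markers (5 of 5 tested) and macrophage markers (5 tested of 6 listed) were each negative in all 5, with medians of -0.075 and -0.13. Tendon markers (3 tested) had a median of 0.15, Schwann cell markers (2) 0.032, keratinocyte markers (2) 0.052 and erythroid markers (2) -0.081, and 0 genes of any of these lists were called. Of 8 neuron and spinal cord markers, a tissue rich in Hox RNA, 0 were detected. The part of these cell types in the Hox differences was not tested.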

How the data were processed

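RNA from 6 quadriceps was measured on Illumina bead arrays, 1 per mouse. The authors deposited mean bead intensities, their standard errors, a bead count and detection p-values for every probe, per the file headers; no scanner or software is named there. A second deposited table holds linear intensity values whose columns have equal medians, as read from the values, and served as an alternative.

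Intensities were background-corrected by limma 3.58.1 (normexp, negative controls inferred from detection p-values, offset 16) in R 4.3.3, quantile normalised and put on the log2 scale; the authors' deposited files hold no log2 values. Of 45281 probes, 34885 had 1 gene symbol, 18 several and 10378 none. Probes detected (p under 0.05) on 3 or more arrays were kept (19099), the probe with the highest mean stood for its gene, and 13455 genes (10493 named, 2962 unnamed probes) were tested with lmFit and eBayes; tests were two-sided and Benjamini-Hochberg adjusted over these genes. P-values were read at a threshold of 0.05. The test was checked on simulated data. Nothing was left out of the tables beyond these filters; the number of arrays limits precision.

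The design text says that each KO mouse had a WT littermate, and titles give the numbers, without saying that equal numbers mark littermates. Same-numbered arrays deviated together (correlation of their distances from the genotype means 0.33, 0.22 and 0.46), so the numbers were taken as pairs, although WT 2 correlated more with KO 1 (0.24). The correlations come from the same values that the block is fitted to, so they cannot show which mice were littermates. The main fit has no block.

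Named were Klhl40, every member, and for each pathway list the members called or else the 2 with the smallest p; other markers named were chosen after their values were seen. The members and lists were chosen with earlier results of these data known. Alternatives covered normalisation, offset, filter, probe rule, array weights, littermate block and each array left out.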

Additional observations from a re-analysis of the deposited data

How the results depend on the processing

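No member was called under any of the 15 alternatives (0 of 16 with detection on all 6 arrays, 0 of 43 without a filter, 0 of 27 probes with every probe tested and 0 of 21 members otherwise), and the lowest adjusted p among them was 0.230, for Hoxb4 with the littermate block. Of 310 pairs of member and alternative, 296 kept their direction and 14 did not, in 8 genes with a small or array-dependent difference. The littermate block, detection on all 6 arrays, no filter and every detected probe left each member's difference as in the main fit. Pairs with those alternatives could not change direction and say nothing on robustness. Hoxc10 was -0.0021 with median centring and Hoxb2 0.078 with array weights. Leaving out 1 array, the differences ranged from -0.17 to 0.0097 for Hoxa5, -0.12 to 0.15 for Hoxb2, -0.11 to 0.041 for Hoxc9, -0.034 to 0.097 for Hoxc10, -0.084 to 0.086 for Hoxa2, -0.27 to 0.016 for Hoxa7, -0.41 to 0.052 for Hoxc6 and -0.68 to 0.064 for Hoxd4. The median difference of the members was -0.061 without background correction, -0.061 in the authors' value table and -0.020 without a filter, where 22 undetected genes enter; leaving out 1 array it ranged from -0.17 (without KO 3) to -0.041 (without KO 1). The authors' values followed the uncorrected intensities closely (correlation of log2 values at least 0.9997 per array). That table and the setting without background correction are therefore not separate checks. The counts of signs and of groups that do not overlap without 1 array were chosen after seeing the data. Over all genes, limma called 18 higher and 8 lower with the littermate block, 23 and 8 without background correction, 23 and 8 in the authors' table, 24 and 7 with an offset of 50, 0 and 1 without a filter, 23 and 6 with every detected probe, and 35 and 11 with array weights, against 15 and 5. Leaving out 1 array it called 0 to 15 higher and 1 to 9 lower: 15 and 9 without WT 3, and 0 to 6 higher with 1 lower when another array was left out. The cause of these shifts was not tested. Member probes detected numbered 19 at a detection p under 0.01, 21 with all 6 arrays required and 32 with 1 array, against 27. For dim probes the size depends on the background correction: without it Hoxb4 was -0.15, Hoxd4 -0.11, Hoxd10 -0.091 and Hoxb5 -0.11, and with an offset of 50 they were -0.23, -0.17, -0.15 and -0.17.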
